A study of Mus musculus with 6 samples.

Results

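The 9 genes described here encode granins and other proteins of the dense-core granule: *Chga*, *Chgb*, *Scg2*, *Scg3*, *Scg5*, *Cpe*, *Pam*, *Ptprn* and *Ptprn2*. They were chosen by name, as genes known for this organelle, and each symbol was matched to its Ensembl identifier, giving 9 of the 37224 genes in the count table. RNA was measured in whole pancreata of wild-type (wt) C57/Bl6J mouse embryos, in 3 samples at 13.5 days post coitum (dpc) and 3 at 15.5 dpc, and each sample pooled the pancreata of up to 3 embryos. These stages span part of the secondary transition, the period in which acinar and endocrine cells of the pancreas differentiate. No sample carried a mutation or a treatment, and the stages are the only groups compared. As whole organs were used, fewer cells of a type and less RNA per cell cannot be told apart in any result below.

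Dense-core granules store peptide hormones in endocrine cells, neurons and neuroendocrine cells until a stimulus releases them. Granins are acidic proteins that aggregate with the hormones in the trans-Golgi network and help to form the granule core. Inside the granule, prohormone convertases cut the precursors, carboxypeptidase E removes basic residues from the new C-terminal ends, and peptidylglycine alpha-amidating monooxygenase turns a C-terminal glycine into an amide. The receptor-type tyrosine phosphatase-like proteins IA-2 and IA-2 beta (phogrin), encoded by *Ptprn* and *Ptprn2*, span the granule membrane and are known autoantigens of type 1 diabetes.

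Totals ranged from 10546028 to 16389237 counts per sample. Counts were scaled by edgeR's TMM factors, which lay between 0.847 and 1.08, and levels between genes are compared only per kb of exon. Fold changes are 15.5 dpc over 13.5 dpc. A gene was called higher or lower where the adjusted p of edgeR's quasi-likelihood test (Benjamini-Hochberg over the 15578 genes tested) was at or below 0.05. The samples of a stage, most of all at 15.5 dpc, differed among themselves in a manner that followed exon length. In 15.5 dpc replicate 1 the deviation of genes from the stage mean had a Spearman rho of -0.57 with length, against 0.58 in replicate 2 and 0.05 in replicate 3, across 15578 genes, which are not independent replicates. At 13.5 dpc these values were -0.24, -0.20 and 0.34. Where removal of this trend, or of a sample, changed the call or direction of one of the 9 genes, both values are given. Every pair of samples from the same stage differed by more than counting noise (lowest chi-square of 1.57 per gene).

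Of the 9 genes, *Scg2* and *Cpe* rose between the stages, *Chgb* and *Ptprn* fell, and the other 5 were not called. Of all genes tested, 22.3% were called, 11.6% higher and 10.7% lower. This background of 3467 genes itself varied from 1235, without 13.5 dpc replicate 1, to 7620, without 15.5 dpc replicate 2, when samples were left out. The median log2 fold change of the 9 genes was 0.33, beside -0.01 over all genes tested. The study's own thresholds also ask for size: an adjusted p of at most 0.1, over 100 normalised counts at one of the stages, and a fold below 0.6 or above 1.6. By these, *Scg2* and *Cpe* were higher and none of the 9 genes was lower, while 10.4% of the protein-coding genes passed, 6.47% higher and 3.9% lower. For 6 of the 9 genes the values of the stages were fully separate, 4 of them higher and 2 lower at 15.5 dpc. The same held for 46.4% of all genes tested, 22.8% higher and 23.6% lower.

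**Figure D1:**
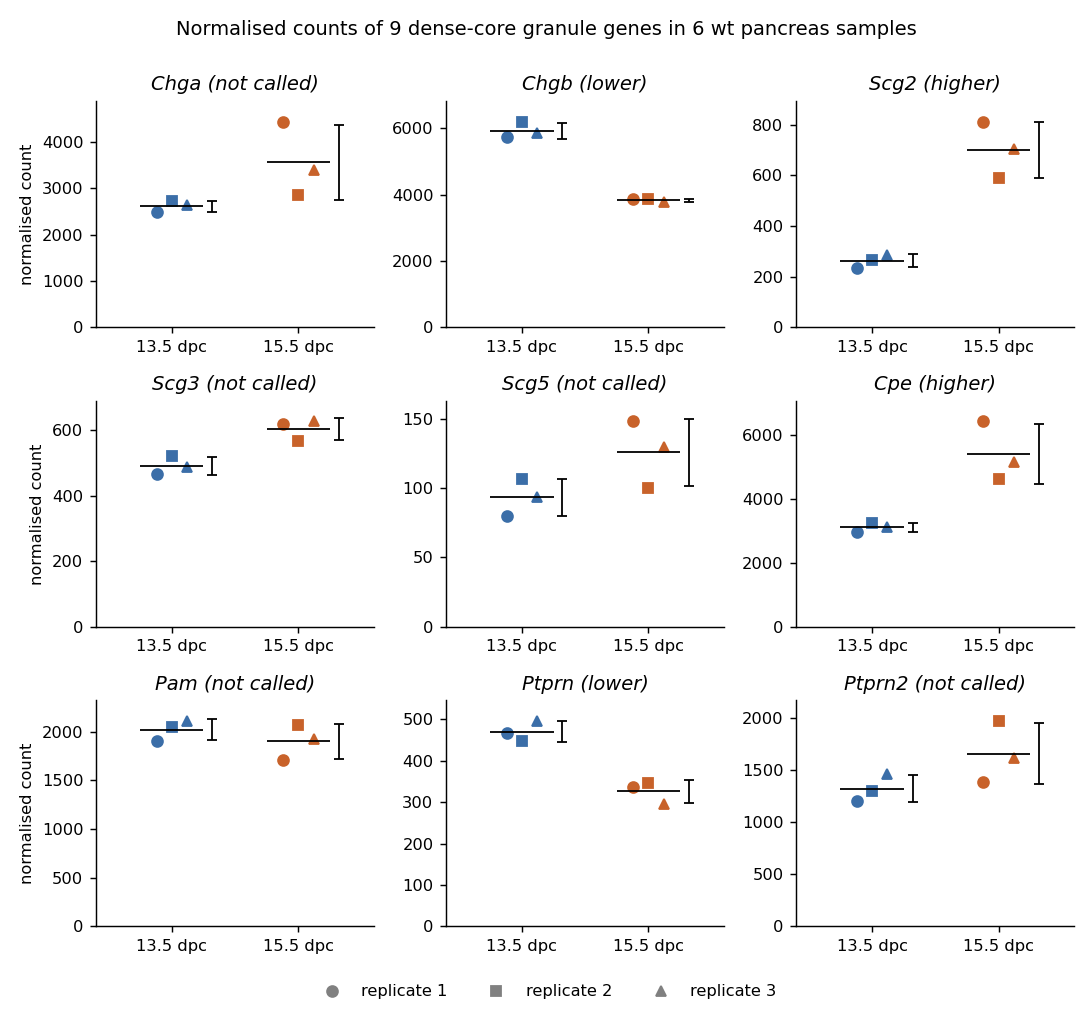
Normalised counts of the 9 genes (vertical axes, each from 0) in the 3 samples of 13.5 dpc (blue) and the 3 of 15.5 dpc (orange), where marker shapes are replicate numbers, horizontal lines stage means and brackets the mean ± SD. The clearest separations are those of *Scg2*, from at most 287 to at least 589, and of *Chgb*, from at least 5740 to at most 3860, whereas the stages of *Scg5*, *Pam* and *Ptprn2* overlap.

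The granins were considered first. *Scg2* (ENSMUSG00000050711; mm10 chr1:79434669-79440090, minus strand) encodes secretogranin II, the precursor of secretoneurin. At 13.5 dpc it had 235, 268 and 287 normalised counts in replicates 1, 2 and 3, and 811, 589 and 703 at 15.5 dpc. Every later sample exceeded every earlier one, and the lowest of them was still above the highest of the earlier stage by more than the spread of either. *Scg2* thus rose 2.66-fold, from 263 ± 26.4 to 701 ± 111 (SD, n = 3 samples each), a log2 fold change of 1.41 (SE 0.15, adjusted p = 0.00123, edgeR). This was the largest fold change among the 9 genes, and it remained a call with the same sign in all 16 alternative fits, at log2 values of 1.19 to 1.53.

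*Chgb* (ENSMUSG00000027350; chr2:132781278-132795079, plus strand) encodes chromogranin B, a core granin of the same acidic family. It went the other way, with 5740, 6193 and 5845 normalised counts at 13.5 dpc and 3854, 3860 and 3783 at 15.5 dpc. The 15.5 dpc samples were close to each other, with a coefficient of variation of 1.13%, and all were below the earlier stage. The mean fell from 5926 ± 237 to 3832 ± 43.2 (SD, n = 3), to 0.647 of the 13.5 dpc level, a log2 fold change of -0.63 (SE 0.08, adjusted p = 0.0029, edgeR). It was called lower in all 16 alternative fits as well, at -0.84 to -0.60.

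*Chga* (ENSMUSG00000021194; chr12:102554969-102565027, plus strand) encodes chromogranin A, the granin most used as a general endocrine marker and the precursor of pancreastatin. It had 2487, 2718 and 2638 normalised counts at the earlier stage, against 4435, 2854 and 3397 at 15.5 dpc. The stages did not overlap, yet replicate 2 of 15.5 dpc lay only just above the earlier samples while replicate 1 lay far above them. The means of 2614 ± 117 and 3562 ± 803 (SD, n = 3) gave a log2 fold change of 0.45 (SE 0.16), which did not pass the test (adjusted p = 0.0841, edgeR). *Chga* was called without 15.5 dpc replicate 2 (0.60, adjusted p = 0.00468) and with the length trend removed (0.28, adjusted p = 0.0434). Without 15.5 dpc replicate 1 the log2 fold change was 0.26 and was not called (adjusted p = 0.0723).

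*Scg3* (ENSMUSG00000032181; chr9:75643264-75683996, minus strand) encodes secretogranin III, which links chromogranin A aggregates to the cholesterol-rich granule membrane. The samples had 466, 521 and 487 normalised counts at 13.5 dpc and 620, 567 and 627 at 15.5 dpc. All later samples were higher than all earlier ones, though by a small margin. The log2 fold change of 0.30 (SE 0.10), from 491 ± 28.1 to 605 ± 33.1 (SD, n = 3), was not called (adjusted p = 0.0635, edgeR). It was called without 15.5 dpc replicate 2 (0.36, adjusted p = 0.0167).

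The promoters of the granin genes were examined for the cAMP response element, the palindrome TGACGTCA to which CREB and related factors bind, since this element is well known from promoters of neuropeptide and granin genes. RefSeq windows from 250 bases before to 50 bases after the transcription start (GRCm38.p6, the mm10 assembly) were at hand for 8 of the 9 genes, all except *Cpe*. The 8-base element was in the windows of *Chgb* and *Scg2*, while 1.79% of all 32851 windows held it on either strand. Its first 5 bases, TGACG, which the full element contains, were in the windows of 6 of the 8 genes searched (*Chga*, *Chgb*, *Scg2*, *Scg3*, *Scg5* and *Ptprn*), and in 20.8% of all windows. The 30-base stretches around these matches are shown 5′ to 3′ on the strand of the gene, because they show that the gene with the largest rise and the gene with the largest fall both carry the full element at a like distance from the RefSeq start. Capitals mark TGACGTCA or TGACG, or CGTCA where TGACG is on the opposite strand.
Scg2, chr1:79440076-79440105, minus strand, element at -68: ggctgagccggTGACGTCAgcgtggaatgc
Chgb, chr2:132781559-132781588, plus strand, element at -72: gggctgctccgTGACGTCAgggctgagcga
Chga, chr12:102554886-102554915, plus strand, core at -44: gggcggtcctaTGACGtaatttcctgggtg
Scg3, chr9:75684068-75684097, minus strand, core at -30: cgctgggtcgcTGACGccatcctcacgcct
Scg5, chr2:113829248-113829277, minus strand, core at -175: aaggaggtaaaTGACGttcataggggtcga
Ptprn, chr1:75264307-75264336, minus strand, core at -117: ttacgccagtaTGACGcaaataggcataag
Ptprn, chr1:75264270-75264299, minus strand, opposite core at -80: ggtggagatgtCGTCAttgcacgcctgcag
Positions count back from the RefSeq start to the first base in capitals, and *Scg5* had 2 further matches after the start, at 20 and 41. In the deposited gene model of *Chgb* an exon begins farther upstream and covers the stretch shown, and the deposited 5′ end of *Scg2*, at 79440090, lies within its stretch, so the like distance holds for the RefSeq starts only. A match in a window is a description of its letters, and binding was not measured in these samples. Among the other motifs searched on both strands, the E-box CAGATG was in none of the 8 genes' windows (17.2% of all windows) and TATAAA was in that of *Chga* alone, at position 6 (13.6% of all windows).

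*Scg5* (ENSMUSG00000023236; chr2:113776362-113829121, minus strand) encodes the neuroendocrine protein 7B2, the chaperone that keeps prohormone convertase 2 soluble and inactive until it reaches the granule. It was the lowest of the 9 genes, with 80.2, 106 and 93.4 normalised counts at 13.5 dpc and 148, 100 and 130 at 15.5 dpc. The stages overlapped, since replicate 2 of 15.5 dpc was below replicate 2 of 13.5 dpc. The log2 fold change was 0.42 (SE 0.19) and was not called (adjusted p = 0.139, edgeR), with means of 93.3 ± 13.1 and 126 ± 24.1 (SD, n = 3). Without 15.5 dpc replicate 2 it was 0.58 and was called (adjusted p = 0.0195), and with the length trend removed it was 0.22 and was not (adjusted p = 0.267).

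Between the peptide-processing enzymes, *Cpe* rose and *Pam* was not called. *Cpe* (ENSMUSG00000037852; chr8:64592558-64693040, minus strand) encodes carboxypeptidase E, which trims the basic residues left after convertase cleavage of proinsulin, proglucagon and other precursors. The 13.5 dpc samples had 2967, 3266 and 3115 normalised counts, against 6437, 4616 and 5163 in those of 15.5 dpc. The stages were well apart, and replicate 1 was again the highest sample of 15.5 dpc. *Cpe* rose 1.73-fold, from 3116 ± 149 to 5405 ± 934 (SD, n = 3), a log2 fold change of 0.79 (SE 0.13, adjusted p = 0.00723, edgeR). It was called in all 16 alternative fits at 0.57 to 0.91, most narrowly without 13.5 dpc replicate 1 (adjusted p = 0.0499).

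*Pam* (ENSMUSG00000026335; chr1:97795114-98095646, minus strand) encodes the amidating enzyme, which uses copper and ascorbate. The samples held 1898, 2042 and 2109 normalised counts at 13.5 dpc and 1712, 2063 and 1923 at 15.5 dpc. The stages overlapped, and the means of 2016 ± 108 and 1899 ± 177 (SD, n = 3) differed by less than the SD of the 15.5 dpc samples. The log2 fold change was -0.09 (SE 0.10, adjusted p = 0.552, edgeR). *Pam* has the longest exons of the 9 genes (7998 bases), and its log2 fold change turned to 0.15 with the length trend removed, still without a call (adjusted p = 0.174). Up to 0.914% of the 50-base windows of its transcripts also occur in other genes, the highest share among the 9, and no exon of the 9 genes overlaps an exon of another gene on either strand.

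The granule membrane proteins differed from each other. *Ptprn* (ENSMUSG00000026204; chr1:75247041-75264208, minus strand) had 467, 448 and 496 normalised counts at 13.5 dpc and 338, 346 and 295 at 15.5 dpc. No 15.5 dpc sample reached the earlier stage. It fell to 0.693 of the 13.5 dpc level, from 470 ± 24.5 to 326 ± 27.4 (SD, n = 3), a log2 fold change of -0.53 (SE 0.11, adjusted p = 0.0139, edgeR). The call was lost when any 1 of the 13.5 dpc samples was left out (adjusted p = 0.0692, 0.0541 and 0.0724 without replicates 1, 2 and 3) and without 15.5 dpc replicate 3 (adjusted p = 0.0723), with log2 values of -0.57 to -0.46 over the 6 samples left out in turn.

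*Ptprn2* (ENSMUSG00000056553; chr12:116485720-117278167, plus strand) showed 1197, 1298 and 1457 normalised counts at 13.5 dpc and 1383, 1967 and 1613 at 15.5 dpc. Here replicate 1 was the lowest 15.5 dpc sample, below replicate 3 of 13.5 dpc, and replicate 2 was the highest. The log2 fold change of 0.33 (SE 0.15), from 1317 ± 131 to 1654 ± 295 (SD, n = 3), was not called (adjusted p = 0.14, edgeR). It was called with the length trend removed (0.42, adjusted p = 0.0157) and without 15.5 dpc replicate 1 (0.44, adjusted p = 0.0192). Leaving out 15.5 dpc replicate 2 gave 0.20 and no call (adjusted p = 0.187).

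**Figure D2:**
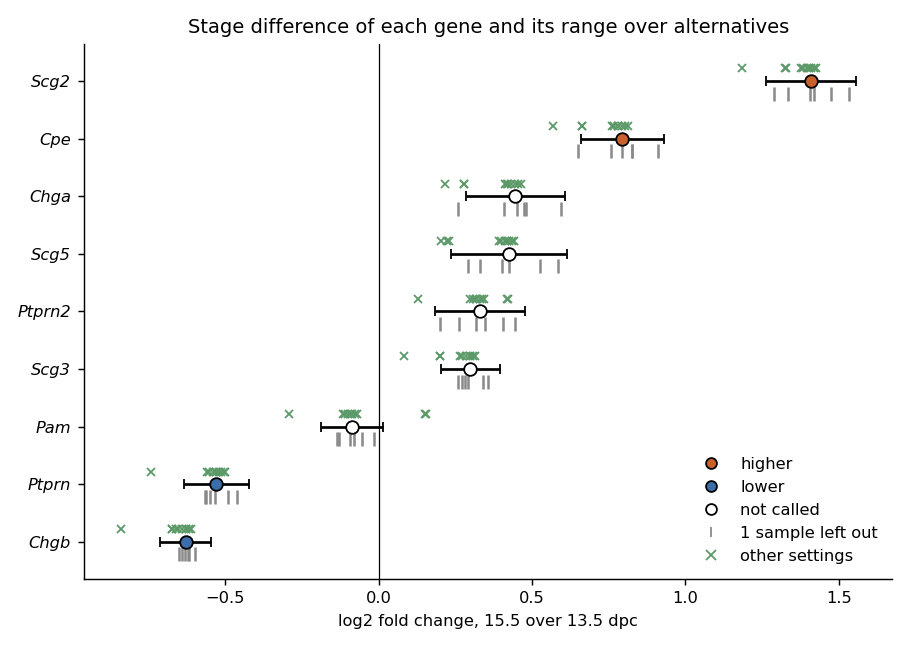
Log2 fold change of each gene, 15.5 over 13.5 dpc (horizontal axis), with its SE as a bar and filled points for called genes; grey ticks below are the fits with 1 sample left out and green crosses above are the other settings. Every gene except *Pam*, which lies on both sides of 0, keeps its sign in every fit, *Chgb* and *Ptprn* to the left and the rest to the right.

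Within 15.5 dpc, the samples were ordered alike in several genes. Replicate 1 was the highest and replicate 2 the lowest for *Chga*, *Scg2*, *Scg5* and *Cpe*, whose exons measure 1882, 2485, 1569 and 2087 bases. For *Pam* and *Ptprn2*, with exons of 7998 and 4688 bases, replicate 1 was the lowest and replicate 2 the highest. The 15.5 dpc coefficient of variation was 22.6% for *Chga*, 19.2% for *Scg5*, 17.8% for *Ptprn2* and 17.3% for *Cpe*, and at 13.5 dpc these genes had 4.49%, 14.0%, 9.93% and 4.80%. *Chgb*, with exons of 2740 bases, varied by only 1.13% at 15.5 dpc.

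Levels were then compared between genes as normalised counts per kb of exon. At 13.5 dpc *Chgb* was the highest at 2163 ± 86.6, followed by *Cpe* at 1493 ± 71.6 and *Chga* at 1389 ± 62.4 (SD, n = 3), and the samples of the last pair overlapped. Much lower came *Ptprn2* at 281 ± 27.9 and *Pam* at 252 ± 13.5, which overlapped, then *Scg3* at 218 ± 12.5, *Ptprn* at 133 ± 6.94, *Scg2* at 106 ± 10.6 and *Scg5* at 59.5 ± 8.33. The granins were thus spread over the whole range, from the highest level of the 9 genes to the last but one.

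At 15.5 dpc the order had changed. *Cpe* was now the highest at 2590 ± 448, *Chga* followed at 1893 ± 427 with overlapping samples, and *Chgb* came next at 1399 ± 15.8, below every *Chga* sample (SD, n = 3). *Scg2* moved up from the 8th to the 5th place, at 282 ± 44.7. It lay between *Ptprn2* at 353 ± 62.9 and *Scg3* at 269 ± 14.7, and each of these neighbours, as well as *Scg3* and *Pam* at 237 ± 22.1, overlapped in their samples. The lowest levels were those of *Ptprn* at 92.2 ± 7.76 and *Scg5* at 80.3 ± 15.4, which also overlapped. Among all genes tested, the mean level per kb of *Cpe*, *Chgb* and *Chga* lay at percentiles 97.8, 97.3 and 97.0, those of *Ptprn2*, *Pam*, *Scg3* and *Scg2* at 80.4, 75.2, 75.0 and 69.7, and those of *Ptprn* and *Scg5* at 54.8 and 42.7.

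**Figure D3:**
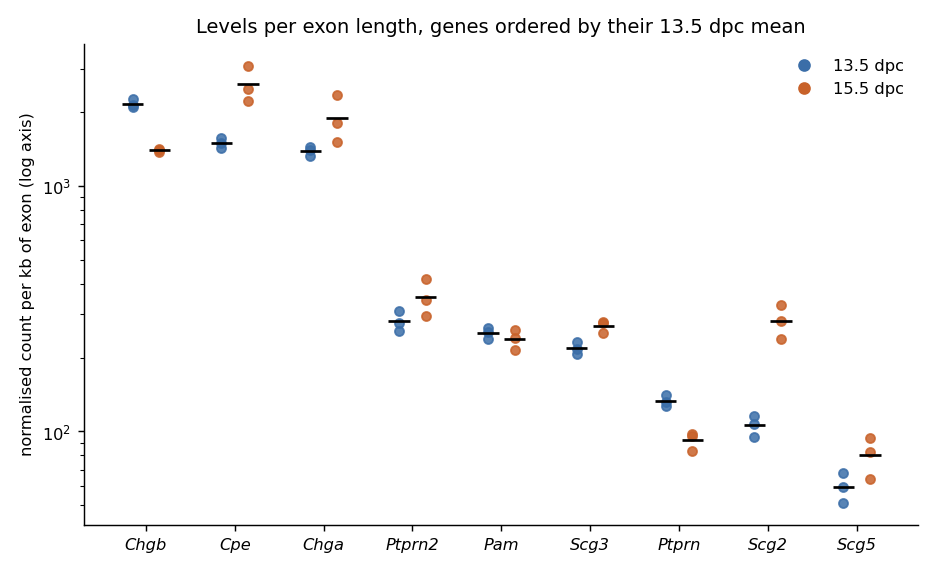
Normalised counts per kb of exon (vertical axis, logarithmic) of the 9 genes in the samples of 13.5 dpc (blue) and 15.5 dpc (orange), with lines at the stage means and genes in the order of their 13.5 dpc mean. *Chgb*, *Cpe* and *Chga* stand above the other genes at both stages, between 1389 and 2590, and *Scg2* passes from 106 to 282.

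The 9 genes together held 0.132%, 0.144% and 0.140% of all counts at 13.5 dpc and 0.132%, 0.133% and 0.133% at 15.5 dpc. These shares overlapped between the stages. On the scale of normalised counts, the sum of the 9 genes was 15537 to 16860 at 13.5 dpc and 16962 to 19738 at 15.5 dpc, without overlap. The make-up of the sum differed. *Chgb* made up 36.3% ± 0.856 of the normalised counts of the 9 genes at 13.5 dpc and 21.2% ± 1.63 at 15.5 dpc (SD, n = 3). The share of *Cpe* went from 19.1% ± 0.262 to 29.7% ± 2.72, and that of *Scg2* from 1.61% ± 0.115 to 3.86% ± 0.337. For each of these 3 genes the stages were fully separate.

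Ratios between genes of the same sample do not depend on the scaling factor of that sample, though they can change when the length trend is removed, and 6 were computed. With 3 samples per stage, a two-sided exact permutation test cannot give a p below 0.1. The ratio of *Chga* to *Chgb* was 0.433, 0.439 and 0.451 at 13.5 dpc and 1.15, 0.739 and 0.898 at 15.5 dpc. The mean log2 ratio differed by 1.05 between the stages, with no overlap (exact permutation p = 0.1). The ratio of *Scg2* to *Chga* also differed, by 0.98 on the log2 scale, from 0.0945, 0.0984 and 0.109 to 0.183, 0.206 and 0.207 (exact permutation p = 0.1).

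The ratio of *Ptprn* to its paralogue *Ptprn2* was 0.390, 0.345 and 0.341 at 13.5 dpc and 0.244, 0.176 and 0.183 at 15.5 dpc, a log2 difference of -0.85 (exact permutation p = 0.1). It was -0.92 with the length trend removed. For the enzymes, the ratio of *Cpe* to *Pam* went from 1.56, 1.599 and 1.48 to 3.76, 2.24 and 2.69, a log2 difference of 0.87 (exact permutation p = 0.1), which became 0.51 with the length trend removed. The log2 ratio of *Chga* to *Pam* differed by 0.51 between the stages (exact permutation p = 0.1) and by 0.12 with the length trend removed, and it was 0.27 without 15.5 dpc replicate 1. The ratio of the chaperone *Scg5* to its client *Pcsk2* was 0.0741, 0.0873 and 0.0738 at 13.5 dpc and 0.0885, 0.0606 and 0.0774 at 15.5 dpc. It overlapped between the stages, with a log2 difference of -0.07 (exact permutation p = 0.9). With the length trend removed the stages no longer overlapped, and the difference was -0.50 (exact permutation p = 0.1).

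**Figure D4:**
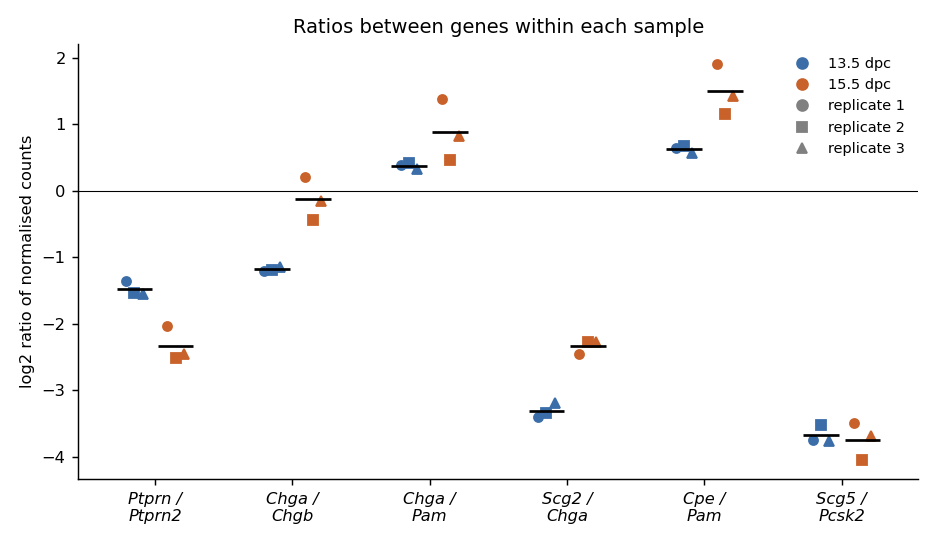
Log2 ratio of normalised counts of 2 genes in the same sample (vertical axis) for 6 pairs, in the samples of 13.5 dpc (blue) and 15.5 dpc (orange), where shapes are replicate numbers and lines stage means. The stages do not overlap in 5 pairs, while those of *Scg5* over *Pcsk2* do.

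Genes with the pattern most like each of the 9 were taken from all genes tested with a mean of at least 100 normalised counts, by the root mean square difference of centred log2 normalised counts over the 6 samples. For *Scg2* these were *Cdk18* (0.036), *Stc2* (0.057), *Hspb6* (0.058), *Muc1* (0.065) and *Slc7a4* (0.066). For *Chgb* the nearest were *Ephb3* (0.043), *Fgd2*, *Snx24*, *Scmh1* and *Slc6a8* (0.051). The nearest to *Cpe* were *Kyat1* (0.029), *Tle6*, *Prpsap1*, *Aup1* and *Sod2* (0.046), and to *Ptprn* *Dyrk1b* (0.032), *Dhx35*, *Rhbdl3*, *Ctc1* and *4931428F04Rik* (0.052).

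The genes nearest to *Chga* were *Ogg1* (0.029), *Cdca3*, *Pmpcb*, *Tbrg1* and *Ddit4l* (0.038), and to *Ptprn2* *Nuak1* (0.031), *Dusp16*, *Map2*, *Pml* and *Slc39a9* (0.040). *Scg3* was followed most closely by *Rnf149* (0.018), *Pam* by *Polr3a* (0.019) and *Scg5* by *Acrbp* (0.060). None of the 9 was among the 5 nearest genes of another. Within the 9, the closest pairs were *Chga* and *Scg5* (0.097) and *Chgb* and *Ptprn* (0.105), and the most distant were *Chgb* and *Scg2* (1.03).

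Other genes of the pathway were taken from lists written by function. Of the 6 genes on the list of other granins, convertases and their partners, 3 rose, none of them a granin, and none fell, with a median log2 fold change of 0.48. The convertases that act on proinsulin and proglucagon rose: *Pcsk1* from 291 ± 39.7 to 424 ± 40.2 normalised counts (log2 fold change 0.54, adjusted p = 0.0297) and *Pcsk2* from 1189 ± 94.8 to 1667 ± 12.4 (0.49, adjusted p = 0.011, edgeR, n = 3). The calcium-binding protein secretagogin, *Scgn*, rose by 0.86 (adjusted p = 0.0185, edgeR). *Pcsk1n*, which encodes the convertase 1 inhibitor proSAAS, had a log2 fold change of 0.46, *Vgf* of -0.10 and *Gnas* of -0.03, and none of these was called. *Gnas* encodes the G protein subunit alpha-s, and its locus also gives the granin-like protein NESP55. The counts do not separate these products.

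Among the peptide hormones and amidated peptides, 8 of the 16 tested rose and 2 fell, with a median log2 fold change of 0.93. *Tac1* did not pass the filter on low counts. Somatostatin, *Sst*, rose the most, from 76.1 ± 17.7 to 816 ± 363 normalised counts (log2 fold change 3.41), and the insulin genes *Ins2* and *Ins1* rose by 2.64 and 2.57. *Gcg*, the glucagon precursor, had 15868 ± 967 and 12725 ± 1954 normalised counts (SD, n = 3) and was not called (-0.32, adjusted p = 0.114, edgeR). The amidated peptides *Ppy*, *Npy*, *Iapp* and *Pyy* rose by 1.97, 1.90, 1.85 and 0.78, beside the -0.09 of *Pam*. *Cck*, which is also amidated, fell by 1.15, and the amidated peptides *Gast*, *Gal*, *Vip*, *Calca* and *Adm* were not called, at 0.03 to 1.14. *Cartpt* fell by 1.42.

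For copper supply and ascorbate, on which *Pam* depends, 2 of 5 genes rose: the copper importer *Slc31a1* (0.40) and *Cyb561d2* (0.74), a cytochrome b561 family member. Of 8 other listed carboxypeptidases, which include the cytosolic *Agbl5* beside relatives of *Cpe*, *Cpn1* rose by 0.88 and *Cpxm1* fell by 0.66, with a median of -0.14. Of 15 other receptor-type tyrosine phosphatases on the list written for them, none rose and 3 fell (*Ptpro* by 1.37, *Ptprd* by 1.00 and *Ptpru* by 0.63), with a median of -0.33. Their exons measure 3335 to 22702 bases, against 460 to 1527 for the tested genes of the hormone list. The log2 values and medians of all lists are without removal of the length trend.

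Among 31 genes of granule assembly, membrane and release, 8 rose and 1 fell, with a median of 0.08. The islet zinc transporter *Slc30a8*, which loads zinc into insulin granules, rose by 1.49, *Ica1* by 1.44, the granuphilin gene *Sytl4* by 0.96 and its partner *Rab27a* by 0.82. *Atp6ap2*, an accessory protein of the proton pump, rose by 0.55. *Rab3d*, *Hid1* and *Rab26* rose the most, by 1.94, 1.93 and 1.85, and *Rab3d* and *Rab26* are also genes of exocrine zymogen granules. The vesicular monoamine transporter *Slc18a2* fell by 0.66. The SNARE proteins shared with synapses were not called, with log2 fold changes of 0.16 for *Vamp2*, -0.05 for *Snap25* and -0.23 for *Stx1a*.

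**Figure D5:**
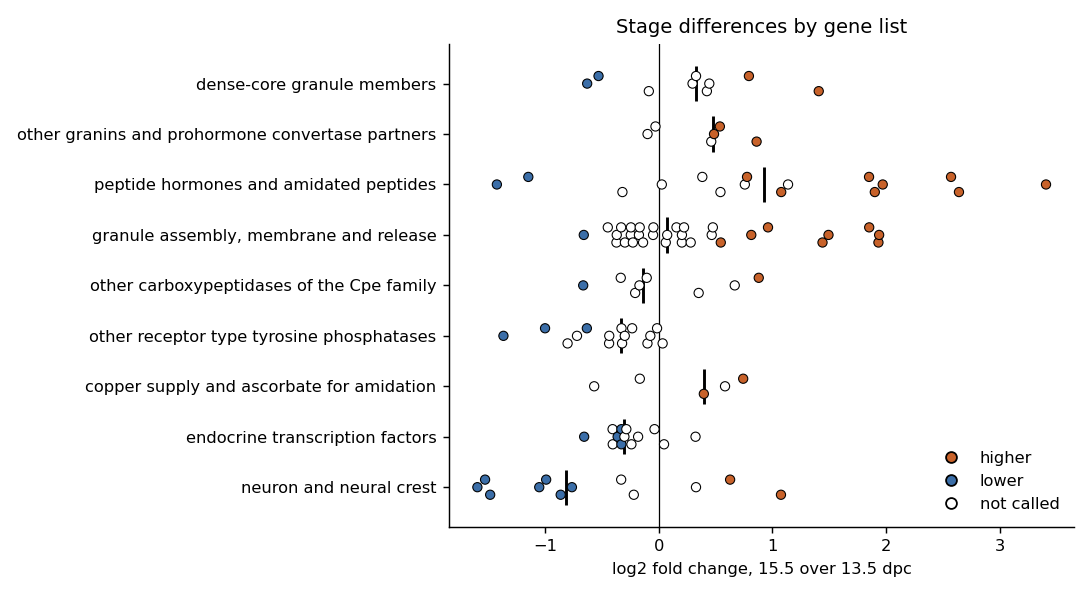
Log2 fold change, 15.5 over 13.5 dpc (horizontal axis), of each tested gene of the 9 dense-core granule genes and 8 further lists (rows), coloured where called, with a vertical bar at the median of each list. The hormone list reaches 3.41 and has a median of 0.93, whereas the neural list has a median of -0.81.

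Markers of the cells that could carry these transcripts were examined beside the results. Of the 13 endocrine transcription factors, which mark endocrine progenitors and new endocrine cells, none rose and 4 fell, among them *Insm1* by 0.36 and *Neurog3* and *Nkx2-2* by 0.33 each. Their summed level was 7685 to 7972 normalised counts at 13.5 dpc and 6248 to 6906 at 15.5 dpc, in the same direction as *Chgb* and *Ptprn*. Granins are also made by neurons, and of the 12 tested neuronal and neural crest markers 7 fell and 2 rose, with a median of -0.81. The summed level of this list was 5276 to 5482 at 13.5 dpc and 3843 to 4300 at 15.5 dpc, in the same direction as *Chgb* and *Ptprn*. The largest fall in counts within it was that of *Hand2*, from 2099 ± 38.6 to 1013 ± 62.8 (SD, n = 3). The largest rise was that of *Ret*, from 725 ± 44.3 to 1529 ± 252. *Gap43* and *Hand2* fell by 1.53 and 1.05, *Ret* and *Prph* rose by 1.08 and 0.63, and none of the 13 was at 0 in all samples. The neuronal genes *Tubb3* and *Stmn2* were not called, at -0.33 and -0.22. The part of neural or endocrine cells in the levels of *Chgb* and *Ptprn* was not tested.

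All 8 acinar markers rose, with a median of 2.59, and their summed level went from 66539 to 79536 normalised counts at 13.5 dpc to 344278 to 609976 at 15.5 dpc, in the same direction as *Scg2* and *Cpe*. The summed level of the hormone list went in that direction too, from 21267 to 23330 at 13.5 dpc to 25793 to 47636 at 15.5 dpc. So did that of the epithelial list, from 27826 to 29251 to 35128 to 44411. The part of acinar, endocrine or other epithelial cells in the levels of *Scg2* and *Cpe* was not tested. Of 8 epithelial markers 3 rose and 1 fell, with a median of 0.38, and *Pdx1*, which defines pancreatic epithelium, was at 1225 ± 51.2 and 1361 ± 103 normalised counts (SD, n = 3) and was not called. For mesenchyme the counts were 2 higher and 2 lower of 9, for glia 1 and 1 of 7, for erythroid cells 1 and 3 of 6, for immune cells 0 and 3 of 6 and for endothelium 0 and 0 of 6. Duodenal tissue, which holds granin-rich enteroendocrine cells, was looked for with 7 markers, of which only *Vil1* and *Sct* passed the filter on low counts, *Vil1* higher by 1.20 and *Sct* lower by 0.98 on the log2 scale.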

How the data were processed

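RNA was measured in 6 wt pancreas samples, 3 per stage. The authors prepared strand-specific poly(A) libraries from RNA of high integrity, aligned single-end reads to mm10 with GSNAP, and deposited raw counts of uniquely aligned reads per Ensembl gene, made with featureCounts 1.4.6 (base calls by bcl2fastq 1.8.4, per the submitters' processing notes). Whether counting used the strand is not given in the sources used here. The exon length per gene is also part of the deposited table. All 6 columns of per-sample values were used, and 0 were left out. Of 37224 identifiers, 35449 matched a symbol in the mm10 annotation, which took up 99.4% or more of every sample's counts.

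Genes were filtered with filterByExpr, normalised with TMM and tested with edgeR 4.0.16 (R 4.3.3, limma 3.58.1), by the quasi-likelihood test without covariates and with Benjamini-Hochberg adjustment. The study's methods use DESeq2, and DESeq2 1.42.0 was run as an alternative. Normalised counts are scaled to a common effective library size, the geometric mean over samples. The SE of a log2 fold change was derived from it and the square root of F. The patterns of genes were compared with a pseudocount of 1 on log2 values. Exact tests and figures used scipy 1.17.1 and matplotlib 3.10.9 (Python 3.11.15). Scripts were tested on simulated data.

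The 9 genes, the gene lists and the alternatives were chosen with earlier results of these data known. The text names the 9 genes, genes at the ends of each list or called in it, and, for each of the 9, its nearest gene or all of its 5 nearest. *Adm*, *Agbl5*, *Calca*, *Gal*, *Gast*, *Gcg*, *Gnas*, *Pcsk1n*, *Pdx1*, *Vip*, *Vamp2*, *Snap25*, *Stx1a*, *Tubb3* and *Stmn2* were chosen from the lists after their values were seen. Some listed genes are counted but not reported by name. Promoter windows are from RefSeq. Alternatives were other normalisations, DESeq2, other filters on low counts, a replicate block, removal of a lowess trend with exon length (span 0.5), omission of genes above 1% of the counts, omission of each sample in turn, and the study's thresholds.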

Additional observations from a re-analysis of the deposited data

How the results depend on the processing

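The higher calls of *Scg2* and *Cpe* and the lower call of *Chgb* were kept in all 16 alternative fits, and *Ptprn* lost its call in 4 of them. The number of the 9 genes called higher was 2, with 4 when the length trend was removed and 2 to 5 when each sample was left out in turn, the 5 being reached without 15.5 dpc replicate 2. Calls over all genes moved as well: 1805 of 15578 were higher in the reported fit, 2816 of 15578 with the length trend removed and 3924 of 15862 without 15.5 dpc replicate 2. In either direction 3467 genes were called, and 1235 to 7620 when samples were left out, the 7620 again without 15.5 dpc replicate 2 and 1235 to 1438 without replicate 1, 2 or 3 of 13.5 dpc or replicate 3 of 15.5 dpc. Scaling by library size alone gave 1133 higher and 2952 lower. The number called lower was 2, with 1 to 2 when samples were left out and 0 by the study's thresholds. Over all genes 1662 were lower, and 519 to 3696 when samples were left out. The other pathway genes called numbered 33, with 46 when the length trend was removed, beside 5135 of all 15578 genes tested in that fit. Their number was 18 to 57 when samples were left out (18 or 19 where replicate 1, 2 or 3 of 13.5 dpc or replicate 3 of 15.5 dpc was the one omitted, and 57 where it was replicate 2 of 15.5 dpc). *Pam* turned from -0.09 to 0.15 with the length trend removed, and to 0.15 with the block as well. The log2 difference of *Scg5* over *Pcsk2* was -0.07, -0.50 with the length trend removed, and -0.19 to 0.083 when samples were left out, turning to 0.013 without 13.5 dpc replicate 2 and to 0.083 without 15.5 dpc replicate 2. The summed share of the 9 genes differed by -0.0063 percentage points between the stages, and by 0.00027 with genes above 1% of the counts taken out of the total. With all genes in the total it was -0.0096 without 13.5 dpc replicate 1 and -0.0038 without 13.5 dpc replicate 2. For all of these the cause was not tested. With library size only, the median over all genes tested was -0.22 on the log2 scale in place of -0.01, and all 9 values moved down with it.

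Samples with the same replicate number had deviations that correlated at 0.21, -0.21 and 0.03. As these deviations also followed exon length, they cannot show whether the number pairs the samples. With this number as a replicate block, 2 of the 9 genes were higher and 2 lower, and 2676 genes were called in place of 3467. With the block fitted and the length trend removed, 3 of the 9 genes were higher, beside 2443 of 15578 genes, and *Chga* was not called (0.28, adjusted p = 0.0871, edgeR).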
